A study of Mus musculus with 3 samples.

Results

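The Slc25 genes encode the mitochondrial solute carriers, membrane proteins that move metabolites, nucleotides, cofactors and ions across the inner mitochondrial membrane. They were described here in mouse regulatory T cells, a CD4 T cell type specified by Foxp3 that holds immune responses in check. Members were the protein-coding genes of a GENCODE mouse annotation whose symbol begins with Slc25a and a number, with 1 gene of that name pattern left out beforehand. The rule used names and no measured value, and it gave 46 of the 50600 genes in the deposited count tables and 46 of the 21764 protein-coding genes.

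The inner membrane is nearly impermeable to charged metabolites, so each carrier links a mitochondrial reaction to its partner in the cytosol. The ADP/ATP and phosphate carriers supply ATP synthase and release its product. Other carriers export citrate for lipid synthesis, run the malate-aspartate shuttle that brings reducing equivalents from glycolysis into mitochondria, or import cofactors. Activated T cells rely on these links when they enlarge and divide.

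RNA was sequenced in 3 libraries of primary regulatory T cells from strain C57BL/6NJ, numbered biological replicates 2, 3 and 4, which form 1 group without a second condition. Per the file headers the cells had been activated for 16 hours. The assay label names total RNA, but the linked library protocol is named for polyA+ RNA. The labels give 1 donor identifier for all 3 libraries, unknown age and no sex, and link a protocol for CD4 T cell differentiation, so they do not state that the libraries came from separate animals. The SDs and tests below therefore measure the spread between these libraries, whatever its source.

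Libraries held 41222058, 47665060 and 99097524 fragments in replicates 2, 3 and 4. Expression is given as TPM, the fragment count per exon length scaled to 1000000 per library, which allows genes to be compared. Foxp3 stood at 76.4, 82.3 and 83.9 TPM, and all 4 regulatory T cell markers and all 5 T cell markers reached 1 TPM in every library. Ikzf2 was the lowest of the 4 regulatory T cell markers, at 3.94, 2.66 and 3.06 TPM in replicates 2, 3 and 4. The 10 markers of monocytes or macrophages, neutrophils and erythroid cells summed to at most 0.101 TPM per list, and the 4 B cell markers summed to 2.13 to 2.25 TPM. Sex-linked genes set the libraries apart: Xist, the RNA of the inactive X chromosome, stood at 126, 0.331 and 36.1 TPM, and the Y-linked gene Ddx3y at 0.126, 39.3 and 28.4 TPM. Replicates 2 and 3 thus had opposite patterns and replicate 4 had both RNAs, so the spread is not that of repeat libraries from 1 RNA sample. In such bulk samples, fewer cells of a type and less RNA per cell cannot be told apart.

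Of the 46 carriers, 36 reached 1 TPM in every library, 27 reached 10 TPM and 8 reached 100 TPM. Over all protein-coding genes the shares that did so were 45.6%, 34.8% and 8.80%. The median carrier stood at 15.7 TPM, against 0.355 TPM for the median protein-coding gene. Where all libraries reached 1 TPM, the medians were 29.4 TPM for the carriers and 32.3 TPM for protein-coding genes. The family thus held a larger share of expressed genes than all protein-coding genes, at levels near those of other expressed genes. Carriers took 135093, 161524 and 325863 fragments, or 0.328%, 0.339% and 0.329% of the libraries, with 95% Wilson intervals of 0.326% to 0.329%, 0.337% to 0.341% and 0.328% to 0.330%, which cover counting error only.

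**Figure D1:**
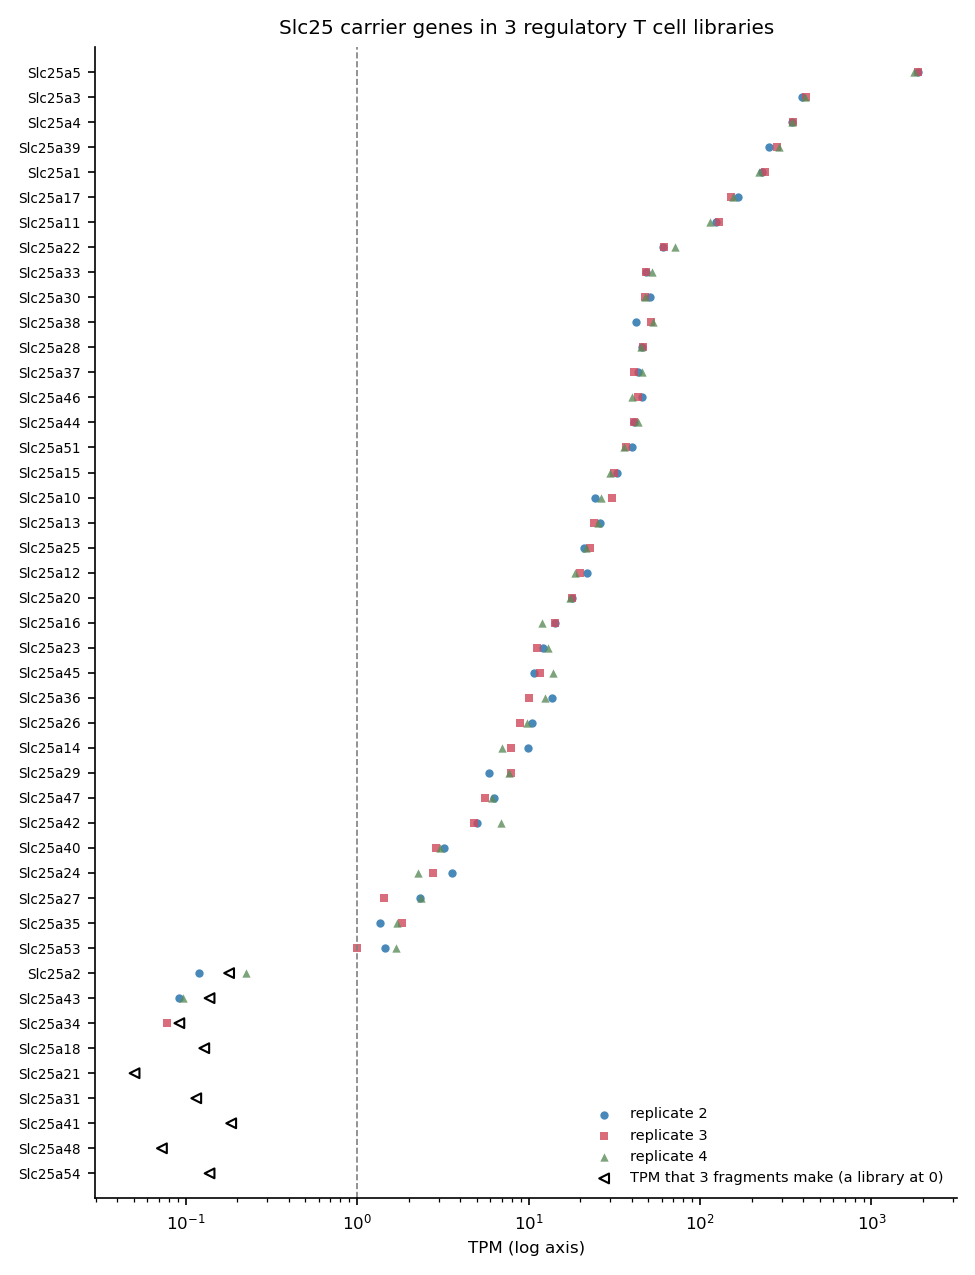
TPM of 45 of the 46 Slc25 carrier genes (log axis) in replicates 2, 3 and 4, ordered by mean, with the dashed line at 1 TPM. Open triangles mark the TPM that 3 fragments would make for genes with a library at 0. Slc25a5 stands at 1779.8 to 1863 TPM, and 9 genes lie left of the line in every library.

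A few carriers supplied most of the family's RNA. The 5 highest, Slc25a5, Slc25a3, Slc25a4, Slc25a39 and Slc25a1, made up 74.3%, 74.8% and 74.0% of the summed carrier TPM, a mean of 74.3% ± 0.41 (SD, n = 3). Slc25a5 alone took 44.1% ± 0.767. The shares here use merged exon lengths, and their SDs do not cover the choice of length. By substrate, the 8 adenine nucleotide and phosphate carriers took 63.1% ± 0.486, the 9 cofactor and nucleotide carriers 9.79% ± 0.287, the 4 carboxylate carriers 9.14% ± 0.363, the 4 glutathione and iron carriers 8.84% ± 0.486, and the 9 amino acid carriers 5.78% ± 0.275. The fatty acid carrier, Slc25a46, the uncoupling-protein relatives and the less studied members made up the rest.

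Slc25a5 encodes ANT2, the ADP/ATP exchanger of proliferating cells, and lies on the X chromosome (chrX:36795651-36798807, plus strand, mm10). It stood at 1855, 1863 and 1779.8 TPM in replicates 2, 3 and 4. Slc25a4 encodes ANT1, the form that predominates in heart and skeletal muscle (chr8:46206797-46211284, minus strand), and stood at 342, 348 and 345 TPM. Both genes were abundant in every library, and ANT2 was the higher by a wide margin without overlap. The difference of Slc25a5 from Slc25a4 was 2.41 ± 0.04 on the log2(TPM + 1) scale, or 5.31-fold by mean TPM. Slc25a31, the ANT4 form of male germ cells, had no fragment in any library. With 3 fragments, it would have had at most 0.116 TPM, so Slc25a5 was at least 16062-fold higher when each library's floor of 3 fragments is used.

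The start of the coding sequence shows how far the 2 exchangers differ at the level that fragments are assigned. The first 60 coding bases are given from the GENCODE M21 transcripts, with capitals in Slc25a4 where its base differs from Slc25a5, which happens at 19 positions.
Slc25a5: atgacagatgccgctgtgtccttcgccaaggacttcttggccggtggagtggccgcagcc
Slc25a4: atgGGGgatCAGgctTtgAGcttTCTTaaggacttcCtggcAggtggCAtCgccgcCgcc
Over the whole coding sequence of 897 bases each, 77.5% of bases were identical and the longest shared run was 20 bases. No stretch of 100 bases was shared between the transcripts of these genes. Slc25a5 instead shared 12.0% of its 100-base stretches with 4 processed pseudogenes elsewhere in the genome (Gm5256, Gm5529, Gm5560 and Gm6425). Together they were assigned 58, 58 and 117 fragments, or 0.156%, 0.132% and 0.137% of the Slc25a5 counts. The counting command has no option for fragments that align to several places, which the program then leaves out, so the level of Slc25a5 is uncertain. Among other carriers, Slc25a36 shared 7.76% of its stretches with Gm13217 and Slc25a40 7.12% with Gm5066, both elsewhere in the genome. Slc25a37 shared 6.94% with 3 genes, among them the protein-coding gene Gm16867 elsewhere (46, 62 and 207 fragments). Slc25a35 shared 19.1% with Gm10355 elsewhere and with Rangrf, which overlaps it on the opposite strand. The 10.2% that Slc25a33 shared was with an overlapping antisense gene, so it reflects the same place in the genome and no copy elsewhere.

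Slc25a43 lies 18448 bases upstream of Slc25a5 on the same strand with no protein-coding gene between them. It had 2, 0 and 5 fragments in replicates 2, 3 and 4 (0.0921, 0 and 0.0961 TPM), near the 0.138 TPM that 3 fragments would make. The 2 promoters are shown because these neighbours stood far apart in level, Slc25a5 at rank 1 and Slc25a43 at rank 39 of the 46 carriers. Both sequences are from RefSeq on GRCm38.p6, 250 bases before to 50 after the RefSeq start, on the plus strand. Capitals mark the GC box (GGGCGG, on either strand) and the TATA box (TATAA, on either strand).
Slc25a5 (chrX:36795347-36795646): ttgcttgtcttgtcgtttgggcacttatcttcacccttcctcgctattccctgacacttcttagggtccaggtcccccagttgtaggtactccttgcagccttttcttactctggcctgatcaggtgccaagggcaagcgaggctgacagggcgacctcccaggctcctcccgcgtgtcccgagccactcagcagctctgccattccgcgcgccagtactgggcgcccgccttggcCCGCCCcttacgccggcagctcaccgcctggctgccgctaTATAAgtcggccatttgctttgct
Slc25a43 (chrX:36743382-36743681): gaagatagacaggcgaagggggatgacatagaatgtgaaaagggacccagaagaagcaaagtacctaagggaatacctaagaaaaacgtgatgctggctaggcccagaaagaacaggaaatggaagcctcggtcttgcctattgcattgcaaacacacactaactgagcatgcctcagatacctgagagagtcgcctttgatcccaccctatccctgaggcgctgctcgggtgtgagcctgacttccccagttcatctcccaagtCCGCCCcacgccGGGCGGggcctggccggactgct
The Slc25a5 window holds 1 GC box and 1 TATA box, and the Slc25a43 window 2 GC boxes. The TATA box of Slc25a5 begins 26 bases after the RefSeq start, which is 28 bases before the gene's first base in the deposited table. Of 16469 protein-coding genes with a promoter window of this length, 51.1% hold the GC box and 24.4% the TATA box. These are matches of letters and say nothing on their own about a binding factor. The table held a window for 36 of the 46 carriers, too few, so a count of motifs over the family would be void and is not given.

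Slc25a3, the carrier that imports phosphate for ATP synthase (chr10:91116574-91124059, minus strand), stood at 395, 415 and 411 TPM. The calcium-regulated ATP-Mg/phosphate carriers, which adjust the matrix pool of adenine nucleotides, were scarcer. Slc25a24 stood at 3.58, 2.77 and 2.26 TPM, Slc25a23 at 12.1, 11.2 and 13.0 TPM, and Slc25a25 at 21.0, 22.7 and 21.7 TPM. This order, lowest to highest, held in each library without overlap. Slc25a24 fell short of Slc25a23 by a log2 difference of -1.77 ± 0.30 and of Slc25a25 by -2.57 ± 0.28. With the median transcript length in place of merged exons, the difference from Slc25a25 was -3.60 ± 0.24. Slc25a41, which lies 2056 bases from Slc25a23, and Slc25a54, which lies 6461 bases from Slc25a24, were without a fragment (3 fragments would make up to 0.185 and 0.138 TPM).

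Among the carboxylate carriers, Slc25a1 exports citrate, the carbon source for cytosolic acetyl-CoA (chr16:17925211-17928219, minus strand). It stood at 231, 239.9 and 219 TPM. Slc25a11, the oxoglutarate/malate exchanger, stood at 123, 129 and 115 TPM, and the dicarboxylate carrier Slc25a10 at 24.3, 30.8 and 26.6 TPM. Slc25a11 exceeded Slc25a10 in every library, by a log2 difference of 2.13 ± 0.14. The oxodicarboxylate carrier Slc25a21 had no fragment (at most 0.0505 TPM for 3 fragments).

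The aspartate/glutamate exchangers complete the malate-aspartate shuttle. Slc25a13 (citrin, the form of liver) stood at 26.1, 24.1 and 25.3 TPM, and Slc25a12 (aralar, the form of brain and muscle) at 21.9, 20.1 and 18.6 TPM. Both forms were present at similar levels: the log2 difference of Slc25a13 from Slc25a12 was 0.31 ± 0.10 and positive in 3 of 3 libraries. Shuttle enzymes stood above these carriers, with the malate dehydrogenase genes Mdh1 at 257 ± 8.57 and Mdh2 at 516 ± 29.0 TPM and the aspartate transaminase genes Got1 at 228 ± 10.1 and Got2 at 149.6 ± 3.53 TPM (SD, n = 3).

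For other amino acids, expression was mostly from 1 gene of each related pair. Slc25a22, a glutamate carrier, stood at 61.0, 61.9 and 71.9 TPM, whereas its relative Slc25a18 had no fragment (at most 0.129 TPM for 3 fragments), a difference of at least 474-fold against that floor in each library. Slc25a15, the ornithine carrier of the urea cycle, stood at 32.9, 31.6 and 30.0 TPM, and its relative Slc25a2 had 2, 0 and 9 fragments. The glycine-linked carrier Slc25a38, mutated in a human sideroblastic anaemia, stood at 42.1, 51.5 and 52.9 TPM and was lowest in replicate 2. Slc25a44, which imports branched-chain amino acids, stood at 41.2, 40.9 and 43.8 TPM, and the basic amino acid carrier Slc25a29 at 5.91, 7.87 and 7.73 TPM.

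Slc25a20 brings acylcarnitines into the matrix for fatty acid oxidation and stood at 18.0, 17.9 and 17.4 TPM. The carnitine palmitoyltransferase genes that act before and after it were measured on the same merged lengths, with Cpt1a at 13.0 ± 0.601 and Cpt2 at 22.8 ± 2.41 TPM. Slc25a20 exceeded Slc25a29, a relative with 60.5% identical bases over the aligned coding sequence, by a log2 difference of 1.21 ± 0.22. The difference was 2.18 ± 0.21 with transcript lengths, under which Slc25a20 averaged 29.8 TPM.

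Glutathione import was represented by very unequal relatives. Slc25a39 (chr11:102402985-102407946, minus strand) stood at 253, 283 and 289 TPM, and Slc25a40, which carries glutathione as well, at 3.23, 2.90 and 3.04 TPM. The log2 difference was 6.08 ± 0.15, or 5.37 ± 0.16 with transcript lengths, and a large gap was seen in each of the 3 libraries. Genes of glutathione synthesis lay between these carriers, with Gclc at 50.7 ± 3.27, Gclm at 26.2 ± 0.545 and Gss at 15.0 ± 0.986 TPM. The iron carriers were the reverse case. Slc25a28 (mitoferrin-2) stood at 45.7, 46.4 and 45.4 TPM and Slc25a37 (mitoferrin-1, the erythroid form) at 43.7, 41.4 and 46.0 TPM. Their ranges overlapped, and the log2 difference of 0.07 ± 0.09 was positive in 2 of 3 libraries. The erythroid markers Hba-a1 and Alas2 had no fragment in any of the libraries in which this Slc25a37 level was measured.

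Cofactor carriers spanned a wide range. Slc25a17, a carrier of peroxisomes rather than mitochondria that moves coenzyme A, FAD and NAD, stood at 167, 152 and 156 TPM. The NAD carrier Slc25a51 stood at 40.1, 37.0 and 36.2 TPM, and Slc25a53, set beside it as a relative with 56.9% identical bases, at 1.46, 0.999 and 1.68 TPM. Slc25a53 was the 1 carrier that passed 1 TPM in some libraries only. Slc25a26, which imports the methyl donor S-adenosylmethionine, stood at 10.6, 8.97 and 9.84 TPM, far below Mat2a, the enzyme gene that makes it (502 ± 46.5 TPM).

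Slc25a16 stood at 14.3, 14.3 and 12.0 TPM and its relative Slc25a42, a coenzyme A carrier, at 5.03, 4.78 and 6.92 TPM, without overlap. For pyrimidine nucleotides, Slc25a36 stood at 13.7, 10.1 and 12.4 TPM and Slc25a33 at 48.3, 48.7 and 52.3 TPM. Slc25a36 lay below Slc25a33 in every library, by a log2 difference of -1.97 ± 0.21. It was smaller with transcript lengths, at -0.96 ± 0.21. The enzyme gene Cmpk2, which makes mitochondrial pyrimidine nucleotides, was at 0.133 ± 0.149 TPM, whereas Dhodh of pyrimidine synthesis was at 35.6 ± 2.05 TPM.

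Among the relatives of uncoupling proteins, Slc25a14 stood at 9.98, 7.94 and 6.96 TPM, Slc25a30 at 51.4, 47.7 and 48.0 TPM and Slc25a27 at 2.32, 1.43 and 2.37 TPM. The 3 genes did not overlap in any library. Slc25a46, which resides in the outer membrane and shapes mitochondria, stood at 46.0, 43.7 and 40.1 TPM. Less studied members were low: Slc25a45 reached 10.7, 11.6 and 13.9 TPM and Slc25a47 6.33, 5.57 and 6.15 TPM. Slc25a34 had 0, 3 and 0 fragments, its relative Slc25a35 lay at 1.36, 1.82 and 1.72 TPM, and Slc25a48 had none (at most 0.0729 TPM for 3 fragments).

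**Figure D2:**
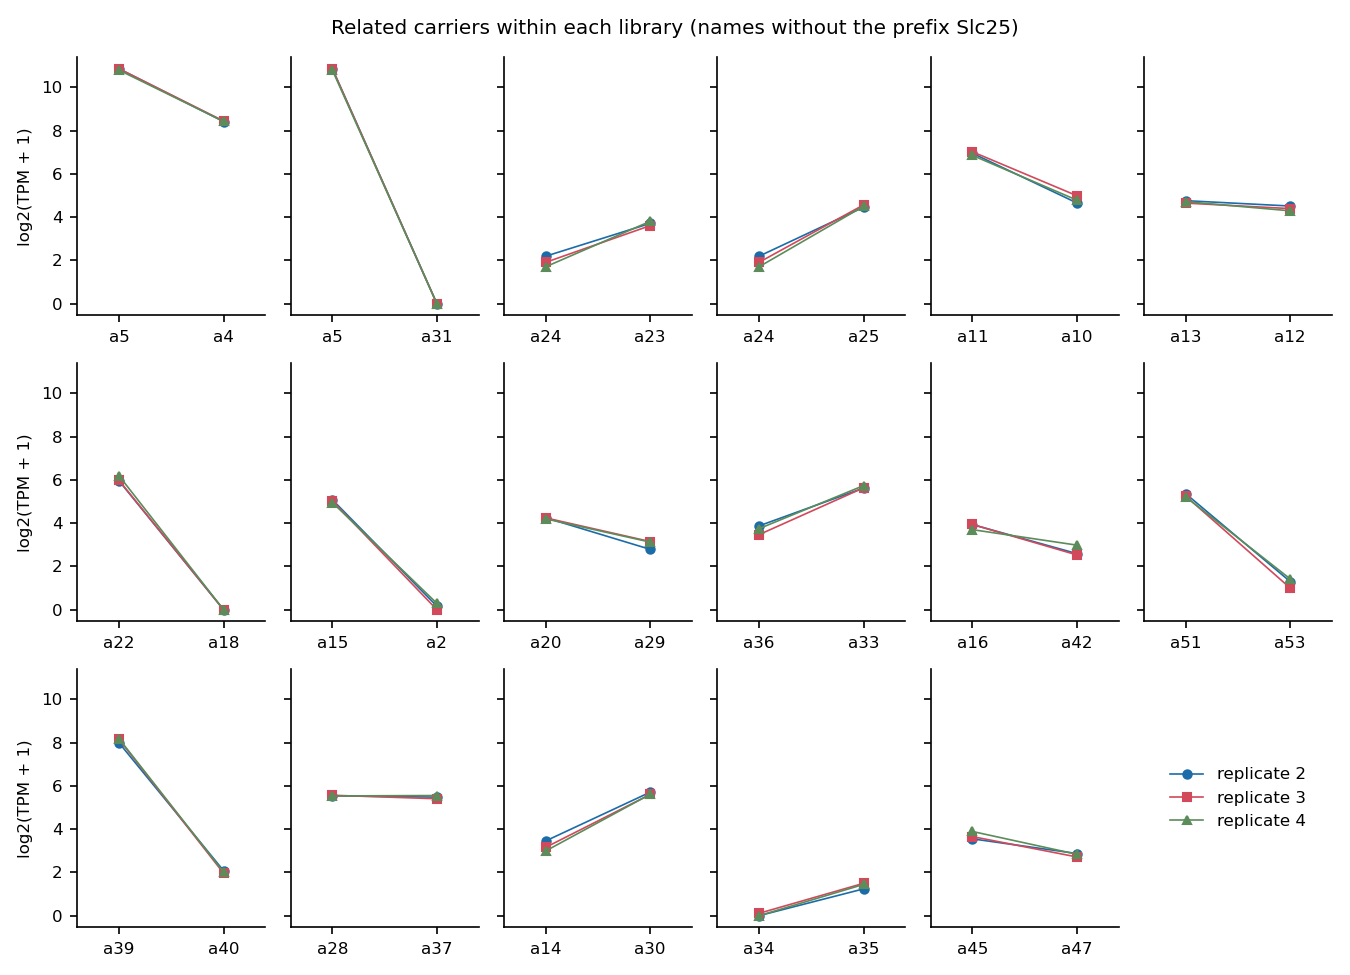
Level on the log2(TPM + 1) scale of each of 17 pairs of related carriers, with 1 line per library (replicates 2, 3 and 4) and the gene named first at the left. In 16 panels the 3 lines slope the same way; Slc25a28 and Slc25a37 are nearly level.

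Within libraries, each pair was compared by a sign-flip permutation test, exact and two-sided. In 11 of 17 pairs the gene named first was higher in every library, in 5 the second was, and 1 was split. The exact test gave p = 0.25 for each of the 16 pairs with 1 sign and p = 0.5 for Slc25a28 against Slc25a37. The smallest exact p that 3 libraries allow is 0.25, and the values adjusted over the pairs were 0.266 and 0.5, so none can pass a threshold of 0.05. Over the coding sequence the pairs shared 56.9% to 77.5% of aligned bases, and no shared run exceeded 25 bases.

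Levels in TPM depend on the length set against each count, and the deposited lengths join the exons of all isoforms. With the median length of each gene's basic GENCODE M21 transcripts in place of this, an alternative chosen after the data were seen, Slc25a3 moved most at the top of the family. Its merged length of 5550 bases was 3.74 times its median transcript length of 1483 bases, and its mean level was 939.8 TPM with the transcript length, against 407 TPM. The ratio of Slc25a5 to Slc25a3 was 1.60 ± 0.064 with transcript lengths and 4.51 ± 0.18 with merged lengths (SD, n = 3). Slc25a5 stayed highest under both lengths. The change of lengths multiplied every level by 0.617, 0.617 and 0.618 in replicates 2, 3 and 4, apart from each gene's own length ratio. Slc25a30, whose M21 transcript has 3588 bases and whose counted exons have 1706, averaged 14.4 TPM with transcript lengths, against 49.0 TPM. Its fragments were counted over the 1706 bases only, so division by 3588 bases can understate its level. This limit also applies to its difference from Slc25a14 with transcript lengths. Of the 40 carriers with a fragment, 5 were higher and 9 lower by over 1.5 times, with the common factor included. Apart from Slc25a30, the 9 had merged lengths of 0.91 to 1.03 times their transcript lengths. Their lower levels thus reflect mainly the common factor and not a length of their own. Slc25a33, for example, has 1887 bases under both lengths. Slc25a39 passed Slc25a4, at 284 against 260 TPM, and 16 of 17 pairs kept the direction of their difference, the exception being Slc25a28 and Slc25a37. In 6 pairs the difference moved by over 1.5 times: the 4 given above with both values, Slc25a51 minus Slc25a53 (3.26 ± 0.27 with transcript lengths, 4.04 ± 0.23 with merged lengths) and Slc25a14 minus Slc25a30 (-0.91 ± 0.18 with transcript lengths, -2.44 ± 0.18 with merged lengths).

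**Figure D3:**
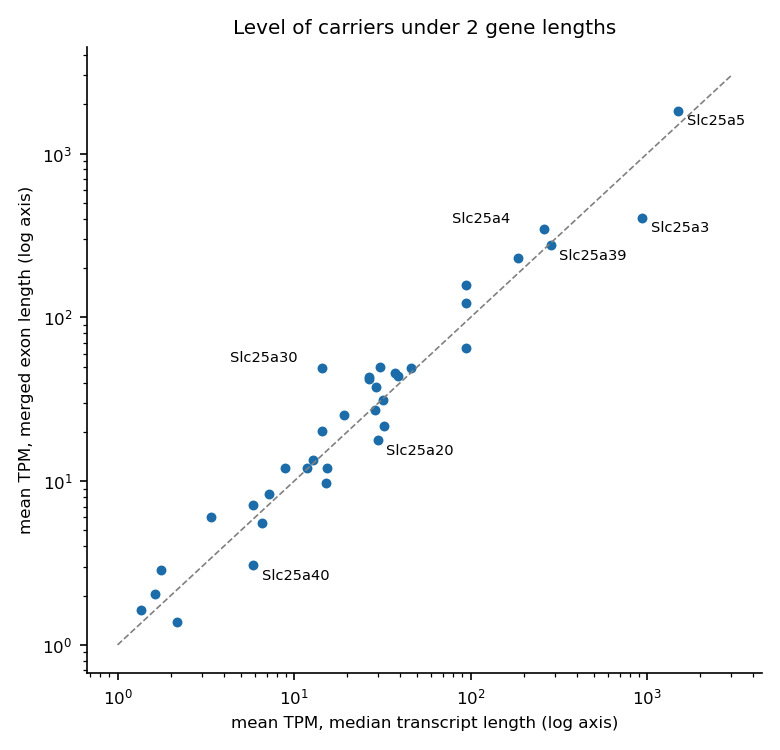
Mean TPM of 36 carriers with a fragment in every library and a level of about 1 TPM or more, with merged exon lengths (vertical log axis) against median transcript lengths (horizontal log axis). The dashed line marks equal values; Slc25a3 lies furthest to the right of it among the highest genes.

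Carriers that bear other names, and other transporters, extended the picture. Of 5 such SLC25-type genes, Ucp2, an uncoupling protein of immune cells, stood at 232 ± 9.35 TPM, Mtch1 at 57.0 ± 2.01 and Mtch2, an outer membrane insertase, at 44.4 ± 2.19 TPM. Ucp3 was at 0.0233 TPM and Ucp1, the uncoupling protein of brown fat, had no fragment. Of 22 other mitochondrial transporters and channels, all but 1 reached 1 TPM throughout (21 genes), and their median was 37.5 TPM. They were led by the outer membrane channel Vdac1 (440 ± 22.7 TPM), the serine carrier Sfxn1 (288 ± 5.55 TPM), Vdac2 (223 ± 8.15 TPM) and the calcium uniporter subunit Smdt1 (170.4 ± 6.05 TPM), with Sfxn5 (1.25 ± 0.281 TPM) and Sfxn4 (0.704 ± 0.126 TPM) lowest. The pyruvate carrier subunits Mpc1 and Mpc2, which belong to another family, stood at 43.3 ± 1.07 and 14.9 ± 1.29 TPM.

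Enzymes that make or use the carried substrates were mostly expressed, 29 of 31 reaching 1 TPM throughout, and the list's median was 34.0 TPM. Shmt2 of mitochondrial serine use (934 ± 64.8 TPM), Mdh2, Mat2a and the citrate-cleaving enzyme Acly (375 ± 10.7 TPM) were highest. Arg2 (0.0574 TPM) and Cmpk2 were lowest. For glutamate, the carrier Slc25a22 stood at 65.0 ± 6.05 TPM and the glutamate dehydrogenase gene Glud1 at 193 ± 13.8 TPM. RNA levels of a carrier and an enzyme are not measures of flux.

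**Figure D4:**
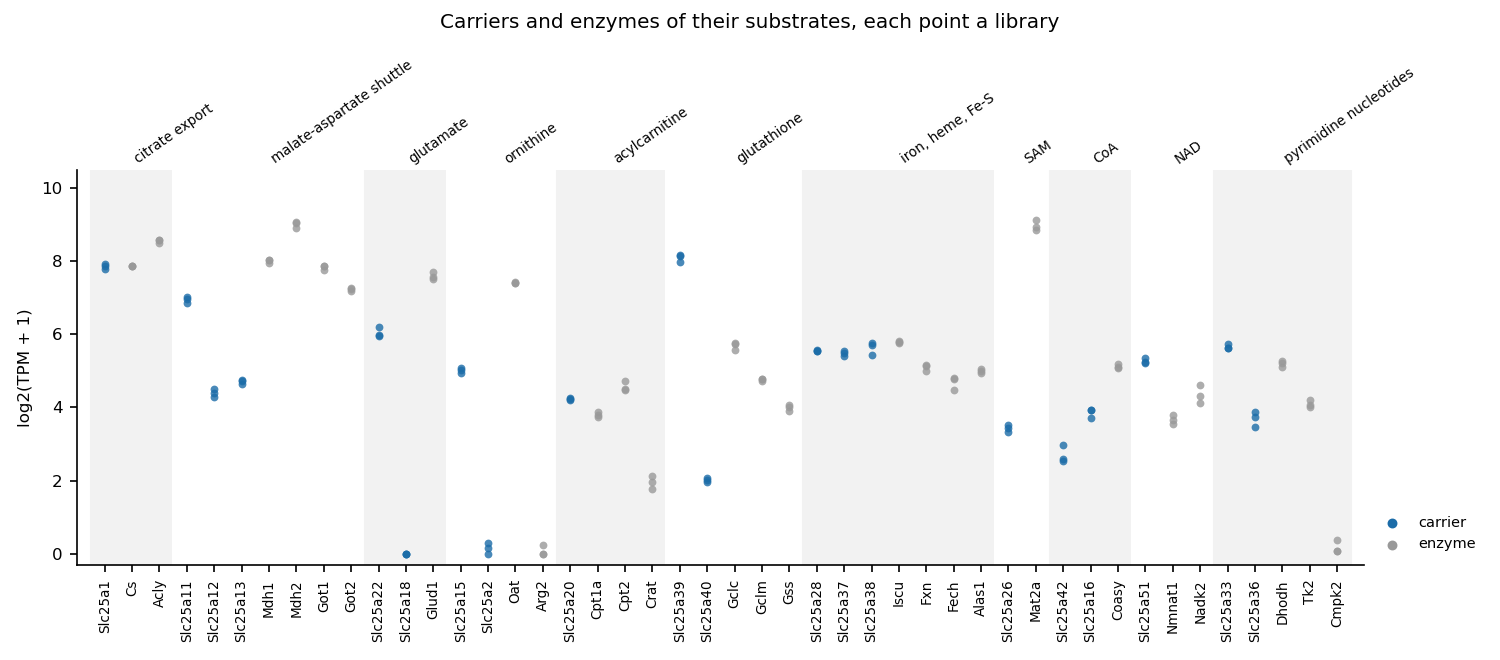
Level on the log2(TPM + 1) scale of carriers (blue) and enzymes of their substrates (grey), grouped by substrate, with 1 point per library. Slc25a39 stands above its enzymes, and Slc25a26 and Slc25a12 stand below theirs.

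The carriers differed little between the 3 libraries. Among the 27 at 10 TPM or more in every library, the median coefficient of variation was 4.94%, from 0.847% for Slc25a4 to 15.1% for Slc25a36, against 6.09% for protein-coding genes so expressed. Rates in the 3 libraries were compared gene by gene with a chi-square test on TMM library sizes, which takes fragments as independent and compares libraries, not conditions. Calls needed both a Benjamini-Hochberg adjusted p below 0.05 and, between the highest and lowest library, a CPM ratio of at least 2, CPM being the count scaled for library size. None of the 37 carriers tested was called, whereas 11.0% of all genes tested, 6.67% of protein-coding genes and 0.645% of protein-coding genes that reached 1 TPM throughout were. With so low a share among expressed genes, a count of 0 does not set the carriers apart. At counting error alone, 29 of 37 carriers had an unadjusted p under 0.05, and the same number had an adjusted p under 0.05; over all genes 70.5% did. Highest-to-lowest ratios of the carriers ran from 1.05 to 1.65, with a median of 1.13, against 1.19 over all genes tested.

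**Figure D5:**
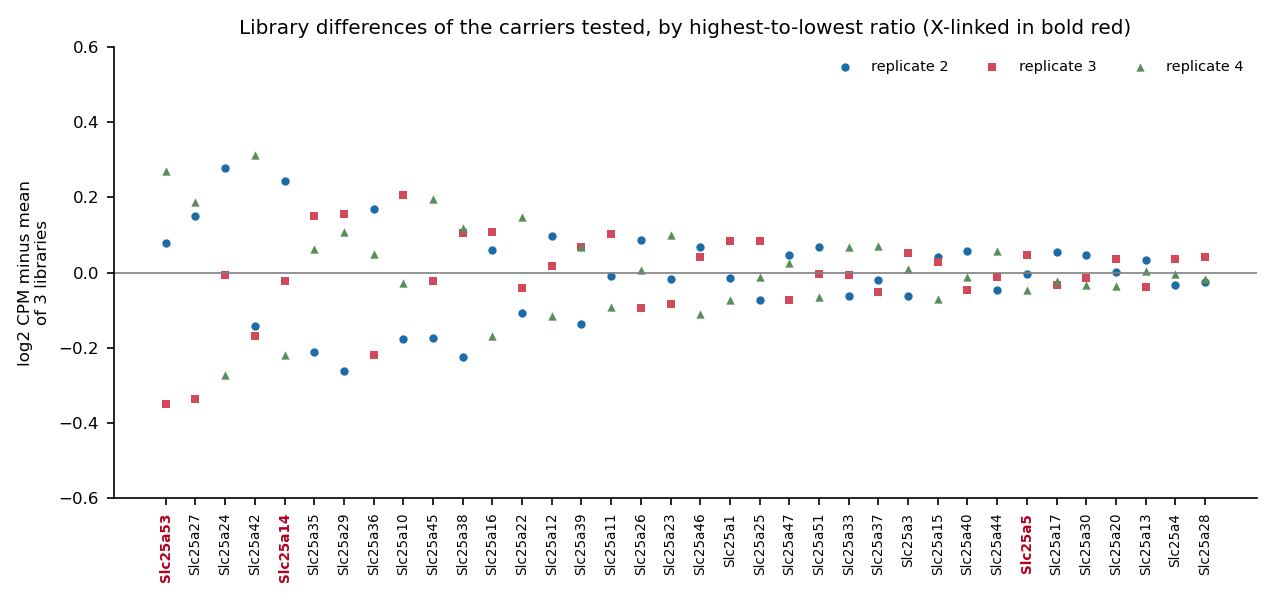
Log2 CPM of each of 36 of the 37 carriers tested in replicates 2, 3 and 4 minus the mean of the 3 libraries, ordered by the highest-to-lowest ratio, with X-linked genes in bold red. The point furthest from 0 is that of Slc25a53 in replicate 3, at -0.350. Slc25a53 at the left has a ratio of 1.65 and Slc25a28 at the right one of 1.05.

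The carriers with the widest ratios were scarce. Slc25a53 (ratio 1.65) and Slc25a27 (1.63) were lowest in replicate 3, and Slc25a24 (1.56) was highest in replicate 2 and lowest in replicate 4. The chi-square test gave adjusted p-values of 3.28e-05 for Slc25a53, 0.00851 for Slc25a27 and 0.000234 for Slc25a24, all short of the required ratio. Slc25a42 had a ratio of 1.42 and was highest in replicate 4. Among the carriers at 20 TPM or more, Slc25a10 (1.31) was highest in replicate 3 and Slc25a38 (1.27) was lowest in replicate 2.

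The libraries' sex-linked genes allow the 4 X-linked carriers to be set beside Xist. Slc25a5 had a ratio of 1.07 and Slc25a43 was at the detection limit. Slc25a14, at 9.98, 7.94 and 6.96 TPM, was highest in replicate 2, where Xist was highest, but lowest in replicate 4, where Xist was intermediate. Slc25a53 was lowest in replicate 3, where Xist was lowest, and highest in replicate 4. No common order with Xist was seen across these genes, and the part of Xist in any of them was not tested.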

How the data were processed

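The authors deposited unnormalized counts of fragments for each gene, beside its merged exon length. Per the file headers, featureCounts 1.4.6-p4 assigned read pairs with both ends aligned to exons of GENCODE mouse M13, using strand option 2 (reverse). The headers name the alignments "star2"; aligner settings were not stated. Per the labels the build is mm10.

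Symbols came from GENCODE M21 (50376 of 50600 identifiers matched). Members and lists were chosen with earlier results of these data known. Each member was accounted for: the 20 highest, every member of a compared pair and the X-linked members with each library's value, the rest by counts. A few genes, 1 carrier among them, are not reported here by name; they remain in all counts, medians and tests. Of each other list the 4 highest and 2 lowest genes were named, with further genes where they act on a described carrier's substrate, and Mpc1 and Mpc2, all chosen after their values were seen. TPM used all genes. Paired levels were compared as log2((TPM + 1)/(TPM + 1)). Libraries were compared for 13688 genes with a summed count of 30 or more, with TMM sizes from edgeR 4.0.16 and Benjamini-Hochberg adjustment; a lowest value of 0 was replaced by 3 fragments. Size factors of DESeq2 1.42.0 were an alternative. The library test was tested on simulated counts with counting error only. Its behaviour under a wider spread between libraries was not tested. A quasi-likelihood fit needs a second group, so none was made. Other software was scipy 1.17.1, biopython 1.88, pandas 2.3.3 and matplotlib 3.10.9 under Python 3.11.15, and R 4.3.3. Shared sequence was counted as identical 100-base stretches of annotated transcripts on either strand, so unannotated copies are missed.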

Additional observations from a re-analysis of the deposited data

How the results depend on the processing

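The count of carriers at 1 TPM or more in every library (36) ran from 32 to 37 under every alternative run, and the number of pairs with 1 sign (16 of 17) from 16 to 17, and was 11 of the 12 pairs in which both carriers reached 1 TPM. The median level of the carriers was 4.05 on the log2(TPM + 1) scale. It was 2.49 with CPM per kilobase on TMM sizes and 2.49 on DESeq2 size factors, by the smaller scale of those units. It was 4.92 over carriers at 1 TPM or more only, 3.96 with a pseudocount of 0.1, 3.97 with transcript lengths, and 4.02 to 4.09 when a library was left out. The share of the 5 highest carriers was 74.1% to 74.5% without 1 library and 77.7% with transcript lengths. No carrier was called between libraries without replicate 2, 3 or 4 (0 to 0), with DESeq2 size factors, with library totals or without the count filter; at a ratio of 1.5 or more 3 were (Slc25a24, Slc25a27 and Slc25a53), beside 16.1% of all genes. The difference of Slc25a28 from Slc25a37 was -0.061 with transcript lengths and not past the threshold under either length. The cause was not tested for the remaining changes. No paired analysis was possible because the libraries form 1 group, so replicate numbers pair no samples across groups; carriers were compared within libraries.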
